A study of Mus musculus with 7 samples.

Results

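Alveolar macrophages are the resident phagocytes of the lung airspaces. They take up and break down inhaled particles and spent surfactant, the lipid film that keeps the alveoli open. Their identity depends on the growth factor GM-CSF, which acts through its receptor to induce the lipid-sensing nuclear receptor PPARG, and on TGF-beta. As background to the levels below, a mouse alveolar macrophage is known for high CD11c (Itgax) and Siglec-F, for abundant lysozyme and the chitinase-like protein Ym1 (Chil3), and for a large lysosomal compartment.

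The members were the 4 libraries labelled wild type, of 7 libraries in the series, and what follows describes their transcriptome across genes, with no comparison of genotypes. Each came from the lung of a C57BL/6-Ly5.1 recipient that had been lethally irradiated and given a marrow mixture of which 90% was wild type Ly5.2 and 10% wild type Ly5.1. By this design the cells can be progeny of transplanted marrow in an irradiated lung, and the share that was is not measured here. Recipient cells that survived irradiation and the Ly5.1 competitor are not told apart by the labels. The labels state neither the age nor the sex of the mice, nor whether competitor cells were gated out of the sort. The label of 4 biological replicates is the basis for treating each library as a separate sample. Within the group there is no second condition, so no test was run and every comparison of libraries is a description.

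Counts per library totalled 79281431, 62424518, 59339061 and 48104653 for replicates 1 to 4. These totals exceed the 14000000 to 20000000 reads per sample that the design text states, and the reason was not tested. Each library had only 303 to 605 genes with 1 to 5 counts. Among low counts from 4 upward, the number of genes per count, smoothed over 5 neighbouring counts, peaked at 7, 12, 7 and 16. Intervals and limits here cover counting error only. A count of 0 allows a level of up to 0.0369, 0.0491, 0.0510 and 0.0621 CPM, taken at 3 counts. If 1 read gave more than 1 count, these limits would be higher in proportion, and whether it did was not tested. CPM is a gene's count as a share of the library's total, scaled to a fixed sum and by the trimmed mean of M-values (TMM), and is the unit used across libraries. TPM is the like share after each count is divided by the length of its gene, and is the unit used between genes. Values after ± are SDs over the 4 libraries (n = 4).

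Replicate 2 stood apart from the other 3 libraries. Over the 8749 genes that averaged at least 10 CPM, its log2 CPM correlated with those of the others at Pearson's r of 0.937 to 0.945, against 0.975 to 0.986 between the other libraries. It differed by more than 2-fold from each of the others at 296 to 341 genes, against 17 to 88 genes between the others. Its total count was within the range of the rest. It had 12011 genes at 1 CPM or more, against 11565 to 11700 in the others, and 8682 genes at 10 CPM or more, against 8699 to 8829. Some transcripts of other lung and blood cells were also higher in replicate 2. The 4 haemoglobin genes summed to 57.8 CPM in replicate 2 and to 3.15, 5.21 and 2.28 CPM in replicates 1, 3 and 4. The 4 surfactant genes summed to 15.2 CPM in replicate 2 and to 0.357, 0.391 and 0.352 CPM in the others. Values that rest on replicate 2 are given below with and without it.

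The 5 markers of the cell type were present in each library. Lyz2 (Entrez 17105, chromosome 10, 117277541 to 117282272 in GRCm38), the gene of the bacteria-digesting enzyme lysozyme M, was the gene with the most counts. It stood at 43931, 31352, 44908 and 37128 CPM, which is 39330 ± 6345 CPM and 77272 ± 12555 TPM. Replicates 1 and 3 were high, replicate 2 was the lowest, and the 4 values were within 0.52 of each other on the log2 scale. Chil3 (Entrez 12655, chromosome 3, 106147554 to 106167564) was rank 2 on both scales, at 18292, 16137, 18335 and 15882 CPM and 23161 ± 1901 TPM. Replicates 1 and 3 were again the high pair.

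Itgax (Entrez 16411, chromosome 7, 128129526 to 128150657), which encodes the integrin chain CD11c, was at 2113, 2090, 2046 and 2054 CPM. The 4 libraries were nearly equal, with an SD of log2 CPM of 0.022, and the gene was rank 37 by CPM. Siglecf (Entrez 233186, chromosome 7, 43351341 to 43359475), a sialic acid-binding inhibitory receptor, was at 309.6, 316.8, 274.5 and 239.5 CPM. Pparg (Entrez 19016, chromosome 6, 115360879 to 115490404) was at 168.5, 253.0, 220.3 and 209.5 CPM. Replicate 1 was the lowest for Pparg and replicate 4 for Siglecf. On the length-scaled level, Itgax was at 1071 ± 28.0 TPM, Siglecf at 242 ± 32.5 TPM and Pparg at 223 ± 35.9 TPM. The order of Siglecf and Pparg is not resolved, since their means differ by less than either SD.

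Few genes held most of the RNA. Of 27179 genes in the table, 11744 averaged at least 1 CPM, 11008 reached it in each library, and 10467 had no count in any of the 4 libraries. Between 612 and 654 genes held 50% of the counts of a library (633 ± 22.3). After length scaling, 291 to 362 genes held 50% of the TPM (318 ± 33.1), and 4203 to 4336 held 90%. The 10 genes with the most counts took 11.7%, 9.39%, 12.0% and 11.5% of the counts in replicates 1 to 4. Replicate 2 had the lowest share in its first 10 and first 100 genes, while over the first 1000 genes replicate 1 had the lowest, at 57.4% against 57.6%. The plot of cumulative shares shows its curve under the others at the left.

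**Figure D1:**
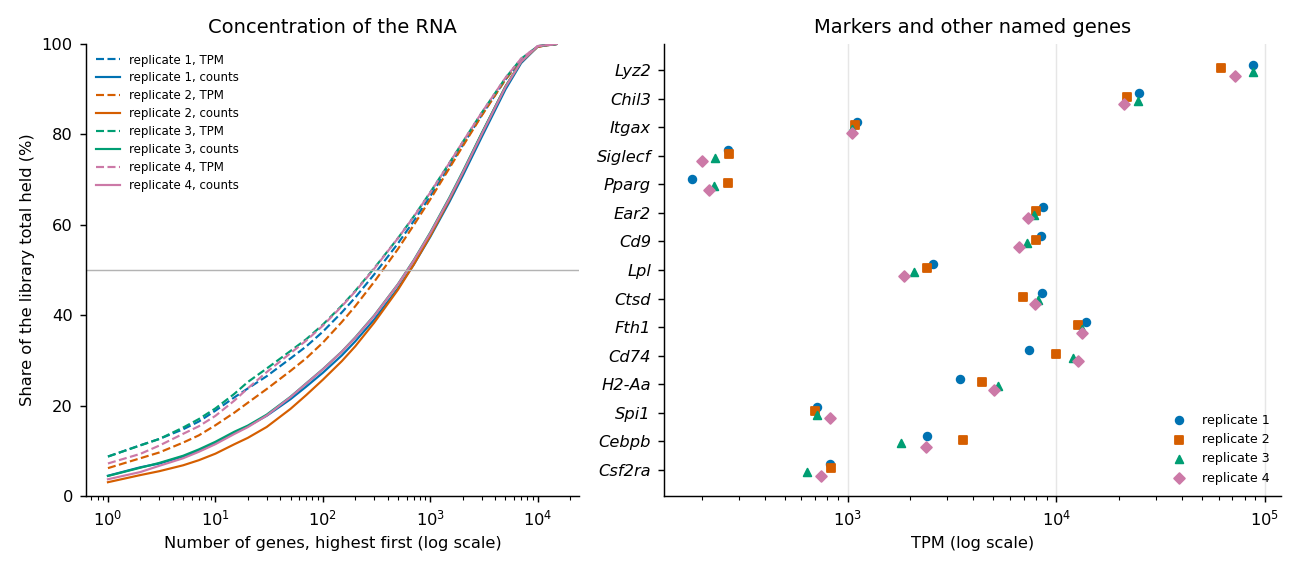
Left, the share of each library held by its highest genes (y axis, %) against the number of genes (x axis, log scale), for counts (solid) and TPM (dashed), with a line at 50%. Right, TPM (log scale) of the 5 markers and 10 other named genes, 1 point per library; Lyz2 lies above every other gene in each library, and Itgax is nearly the same in all 4.

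By level, 102 genes reached 1000 TPM. They were 0.375% of the genes and held 36.5% of the TPM. A further 1552 genes between 100 and 1000 TPM held 38.1%, and 6690 genes between 10 and 100 TPM held 23.7%. At the other end, 12449 genes were under 0.1 TPM and together held 0.00848%. Of the 100 genes highest by TPM in a library, 81 were shared by all 4 libraries. Of the 100 highest by mean CPM, 61 were also among the 100 highest by mean TPM. The median gene length was 2396 bases among the first 100 by CPM and 1376 bases among the first 100 by TPM, against 2762 bases for genes with at least 1 CPM.

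Length scaling moved long cytoskeletal genes down and short genes up. Macf1, a giant linker of actin and microtubules (23495 bases), was rank 447 by CPM and rank 5090 by TPM. Dst, a related linker (23242 bases), went from rank 300 to rank 4018, and Plec, the plectin gene (17515 bases), from rank 324 to rank 3343. Short genes moved the other way. The ribosomal protein gene Rps21 (391 bases) went from rank 3077 to rank 361, and the copper chaperone gene Atox1 (438 bases) from rank 3104 to rank 412. Among genes in the first 500 on either scale, the largest gain was that of the microRNA precursor Mir682, 96 bases long, at 63.4 ± 7.39 CPM and 1370 ± 152 TPM. A feature of about the length of a read gives no reliable length-scaled level, and reads of the polyadenylated RNA counted there are not a measure of the mature microRNA. Flna, an actin cross-linker gene of 8347 bases, was rank 19 by CPM (2628 ± 230.5) and rank 180 by TPM.

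Genes for alveolar macrophage identity were the most abundant group after the mitochondrially encoded one and class II antigen presentation, by median TPM. Of 40 listed genes, 38 averaged at least 1 CPM and 36 at least 10 CPM. The median over all 40 was 515 TPM, against 0.256 TPM over all genes of the table. The summed level was 167321, 133659, 163056 and 139202 TPM in replicates 1 to 4, which makes it the largest sum of any list. Lyz2 was the largest member, at 87509, 61862, 87516 and 72201 TPM. The list also held Lyz1, the second lysozyme gene, at 9257 ± 1391 TPM, and Ear2, an eosinophil-associated ribonuclease, at 7931 ± 530.1 TPM. The tetraspanin gene Cd9 was at 7581 ± 811.6 TPM and the chemokine gene Ccl6 at 7521 ± 627.3 TPM. Lyz1 and Lyz2, the Ear genes, and Chil3 and Chil4 are close copies, and reads that match more than one could have been split between them or dropped. Summed over both genes of each pair, the Lyz genes stood at 50201, 36128, 51339 and 42202 CPM and the Chil genes at 19790, 17470, 19860 and 17213 CPM.

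Genes usually named for other tissues were part of the same profile. Krt19, a keratin of simple epithelia, was at 461.9, 476.4, 424.3 and 438.7 CPM (680 ± 41.3 TPM). Epcam, an epithelial adhesion molecule, was at 152.9, 189.0, 156.0 and 150.8 CPM. Car4, a carbonic anhydrase also used as a marker of lung capillaries, was at 318.6, 446.5, 315.6 and 320.9 CPM. Cd2, an adhesion receptor best known from T cells, was at 292.7, 265.7, 281.7 and 255.4 CPM. Krt19 and Cd2 were steady across libraries, although replicate 2 was slightly the highest for Krt19. Replicate 2 was separated above the rest for Epcam and Car4. Without replicate 2 their means were 154.3 and 320.6 CPM. At the low end of the identity list, the scavenger receptor gene Marco was at 3.09, 6.22, 1.53 and 2.65 CPM, Il18rap at 2.08 ± 1.35 CPM, and Gal3st2 had no count. Fabp4, a fatty acid-binding protein, was the most variable identity gene, at 107.1, 68.4, 47.8 and 54.9 CPM. Replicate 1 was high and replicates 3 and 4 were low.

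All 25 pan-macrophage genes averaged at least 1 CPM, with a median of 500.5 TPM. Ctss (cathepsin S, which trims class II peptides) was at 7289 ± 874.0 TPM and Laptm5, a lysosomal membrane protein of leukocytes, at 2854 ± 138.8 TPM. Tyrobp, the signalling adaptor DAP12, was at 2326 ± 260.2 TPM and the lectin gene Lgals3 at 1899 ± 209.8 TPM. The summed list was even, from 26439 to 27659 TPM in the 4 libraries. Aif1, which encodes the microglial marker IBA1, was the lowest member at 0.529, 2.09, 2.004 and 2.53 CPM. Mpeg1, a pore-forming protein of phagolysosomes, was rank 10 by CPM, at 5288, 4555, 5777 and 5272.

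The list of macrophage transcription factors had the myeloid regulator Cebpb as its highest member, at 1723, 2585, 1322 and 1730 CPM and 2543 ± 745.9 TPM, with replicate 2 the highest. Spi1, which encodes PU.1, the factor needed for all macrophages, was at 737 ± 58.4 TPM. Cebpa followed at 488.5 ± 56.7 TPM and Id2, an inhibitor of E proteins, at 335 ± 13.4 TPM. The immediate early factors Junb and Fos, listed with the stress genes, were at 1204 ± 1122 and 1159 ± 775.9 TPM, with replicate 2 the highest for both. Bhlhe41, a repressor that alveolar macrophages are known to use, was at 268 ± 41.3 TPM. Of 40 listed factors, 38 averaged at least 1 CPM. Factors typical of other resident macrophages were low. Maf was at 1.16 ± 0.397 CPM, and Gata6, the factor of peritoneal macrophages, was at 0.923 and 0.981 CPM in replicates 1 and 2 and had no count in replicates 3 and 4.

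Receptors for the niche signals were abundant. Csf2ra, the ligand-binding chain of the GM-CSF receptor, was at 723.4, 736.8, 570.8 and 669.5 CPM, with replicate 3 the lowest. Csf2rb, its shared signalling chain, was at 687.7, 709.8, 784.4 and 786.3 CPM. On the length-scaled level these were 759 ± 90.9 and 323 ± 18.6 TPM. The TGF-beta receptor genes Tgfbr1 and Tgfbr2 stood at 246 ± 30.3 and 243 ± 18.4 TPM, so their order is not resolved. Csf1r, the receptor for the general macrophage growth factor, was at 220 ± 22.5 TPM. Of 25 receptors listed, 24 averaged at least 1 CPM, and the summed list was the most even of those summed here, at 3488, 3521, 3510 and 3505 TPM. Csf2, the gene for GM-CSF itself, had no count in these cells.

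Lipid handling genes were expressed throughout, with 29 of 31 at 10 CPM or more and a median of 186 TPM. Lpl, the lipase that frees fatty acids from lipoproteins, was at 4953, 4656, 4074 and 3668 CPM. Plin2, which coats lipid droplets, was at 1149, 1381, 1037 and 1027 CPM, with replicate 2 the highest. Lipa, the lysosomal acid lipase, was at 940 ± 118.9 TPM, and Abcg1, the cholesterol exporter, at 932 ± 70.4 TPM. Replicates 3 and 4 were the lower pair for Lpl, Plin2 and the fatty acid scavenger receptor gene Cd36, which was at 418.3, 525.1, 274.4 and 205.6 CPM. The peroxisomal thiolase gene Acaa1b had the same order of pairs, at 153.0, 189.2, 94.9 and 92.3 CPM. Among fatty acid oxidation genes, 24 of 25 reached 10 CPM (median 125 TPM), led by the electron carrier Etfb at 426 ± 40.8 TPM. Cpt1a, which controls fatty acid entry into mitochondria, was at 267 ± 6.27 TPM. Cholesterol synthesis genes had a lower median, 35.3 TPM over 24 genes. Insig1, the sterol feedback regulator, was at 56.96, 165.2, 76.6 and 63.4 CPM, and at 66.1 CPM on average without replicate 2.

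The lysosome accounted for 2 of the 5 genes with the most counts. Ctsd, an aspartic protease, was at 7970, 6521, 7717 and 7527 CPM, and Psap, the precursor of the saposins that present sphingolipids for digestion, at 7244, 6178, 7666 and 7824 CPM. Replicate 2 was the lowest for both. Of 44 hydrolases and membrane proteins, 42 reached 10 CPM and the median was 311 TPM. Sgsh, a heparan sulfatase, was the lowest that reached 1 CPM, at 1.5 ± 0.981 CPM. All 18 genes of the vacuolar proton pump reached 10 CPM, with a median of 270 TPM and a summed level of 6254 to 6570 TPM. Atp6v0d2, a subunit found in macrophages and osteoclasts, led them at 1000 ± 66.2 TPM. Ctsk, a collagen-degrading protease known from osteoclasts, was at 1157 ± 156.0 TPM.

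Iron and redox genes were all expressed, 30 of 30 at 1 CPM. Fth1, the heavy chain of the iron store ferritin, was rank 4 by TPM, at 13297 ± 447.2, and Ftl1, the light chain, was at 5379 ± 467.1 TPM. Fth1 was one of the steadiest abundant genes, at 5694, 5294, 5592 and 5602 CPM. Gpx1 and Prdx5, which remove peroxides, stood at 1709 ± 142.0 and 957 ± 42.8 TPM. Slc40a1, the iron exporter ferroportin, was at 25.1, 3.35, 14.8 and 13.8 CPM, so that replicate 2 was the lowest. Hmox1, which degrades haem, was also lowest in replicate 2, at 309.1, 134.2, 240.8 and 283.3 CPM.

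The 13 protein-coding genes of the mitochondrial genome had the highest median of any list, 2726 TPM. COX1, a subunit of cytochrome c oxidase, was at 7991, 8735, 10709 and 13710 CPM. Replicate 1 was the lowest and replicate 4 the highest, 13 of the 13 genes were higher in replicates 3 and 4 than in replicates 1 and 2, and mitochondrial genes held 2.16%, 2.25%, 2.74% and 3.46% of the counts. Over all genes with at least 10 CPM, 19.7% had both values of replicates 3 and 4 above both of replicates 1 and 2. The nuclear genes of the respiratory chain did not share this order, since their summed level was 15488, 14401, 14615 and 15163 TPM. Their median was 152 TPM over 75 genes, with Cox4i1 at 1075 ± 76.9 TPM.

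Glycolysis genes had a median of 43.7 TPM over 22 genes. Aldoa was at 1081 ± 53.0 TPM and Ldha at 549.9 ± 21.9 TPM. Gapdh was at 53.3 ± 1.38 TPM, or 30.4, 32.6, 31.7 and 31.8 CPM. Gapdh and many ribosomal protein genes have near-identical processed copies elsewhere in the genome, and the sources do not say how reads that match several places were counted, so these levels are uncertain. The 78 ribosomal protein genes held 0.993% to 1.06% of the counts, and annotated pseudogenes held 1.11 ± 0.0391%. Rplp1 led the ribosomal proteins at 2756 ± 70 TPM, while Rps27 was at 15.4 ± 4.81 TPM. Slc2a3, a glucose transporter, was near the detection threshold at 1.35 ± 1.22 CPM, and at 0.792 CPM on average without replicate 2.

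Class II antigen presentation was next among the lists by median, at 855.5 TPM. Cd74, the invariant chain that guards the class II groove, was at 5002, 6801, 8250 and 8792 CPM and 10562 ± 2380 TPM. Replicate 1 was the lowest and replicates 3 and 4 the highest. H2-Aa was at 1748, 2265, 2717 and 2631 CPM and H2-Ab1 at 1592, 2140, 2568 and 2617 CPM, with the same order of replicate 1, replicate 2 and the pair of replicates 3 and 4. Of the 11 members at 10 CPM or more, 9 were higher in replicates 3 and 4 than in replicates 1 and 2. Ciita, the master regulator of class II genes, was at 91.0, 93.8, 158.1 and 143.9 CPM. The co-stimulatory gene Cd40 was low, at 0.861, 4.51, 2.99 and 3.05 CPM.

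All 14 class I genes were higher in replicates 3 and 4 than in replicates 1 and 2, against 19.7% of all genes with at least 10 CPM. B2m, the class I light chain, was at 1708, 1873, 2474 and 2348 CPM and 5077 ± 837.2 TPM. H2-K1 was at 998.3, 1087, 1515 and 1536 CPM. Tap1, a subunit of the peptide transporter, was at 67.8, 65.0, 119.3 and 118.3 CPM. The H2 class I genes are close relatives, and their separate levels depend on how shared reads were treated.

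Surface receptors for particles and microbes covered a wide range. Of 34 phagocytic receptors, 24 reached 10 CPM and 4 were under 1 CPM. Clec7a, the beta-glucan receptor dectin-1, was at 2276, 2832, 2468 and 2012 CPM and 2187 ± 322.5 TPM. Fcer1g, the signalling chain of Fc receptors, was at 1559 ± 142.0 TPM, and Sirpa, which reads the CD47 signal of healthy cells, was even at 2212, 2142, 2275 and 2267 CPM. Axl and Mertk, receptors for apoptotic cells, were at 984 ± 15.7 and 265 ± 32.4 TPM. Itgam, the CD11b chain that alveolar macrophages are known to carry at low levels, was at 11.8, 44.5, 16.3 and 13.1 CPM, and at 13.8 CPM on average without replicate 2. On the length-scaled level, Itgax stood at 1071 ± 28.0 TPM and Itgam at 9.50 ± 6.92 TPM. Among innate sensors, Clec4n was at 1248 ± 86.2 TPM and Tlr2 at 869 ± 336.3 TPM. Tlr2 was at 806.9, 1861, 1055 and 1053 CPM, with replicate 2 above the rest.

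Of 44 cytokines and chemokines, 34 averaged at least 1 CPM and 5 had no count. Ccl6, at 5536, 5211, 5405 and 4642 CPM, held most of the summed level. Il18, a cytokine stored as an inactive precursor, was at 521 ± 87.9 TPM and Tgfb1 at 366 ± 51.1 TPM. The genes for interferon beta, interferon gamma and GM-CSF (Ifnb1, Ifng and Csf2) had no count. Complement genes were mostly low, with 9 of 20 at 1 CPM. Cfp, the gene of properdin, which stabilises the alternative pathway convertase, was at 242 ± 18.7 TPM. Cfb and C3, of the same pathway, were at 134.2, 118.2, 257.4 and 237.9 CPM and at 215.8, 175.6, 365.5 and 343.3 CPM. Both were higher in replicates 3 and 4 than in replicates 1 and 2.

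Proliferation genes were present at a low level. All 50 cell cycle genes averaged at least 1 CPM, with a median of 15.4 TPM. Pcna, the replication clamp, was at 122.8, 115.6, 105.9 and 96.5 CPM, and Stmn1 at 30.2 ± 4.78 CPM. Bulk levels cannot tell a few cycling cells from a low level in every cell, and this holds for each gene described here. Polycomb genes, which encode the chromatin silencers of developmental genes, had a median of 12.2 TPM over 33 genes. Suz12 was at 55.8, 56.1, 73.7 and 69.2 CPM, Eed at 45.7 ± 6.85 CPM and Ezh2 at 20.1, 16.8, 12.0 and 22.3 CPM. Of the 39 Hox genes in the table, 2 averaged at least 1 CPM and 16 had no count. The pair were Hoxb4, at 3.86, 2.08, 1.597 and 4.33 CPM, and Hoxb3, at 1.23, 0.801, 1.24 and 1.28 CPM. Hoxa10 was at 3.25 and 0.736 CPM in replicates 1 and 2 and had no count in replicates 3 and 4.

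**Figure D2:**
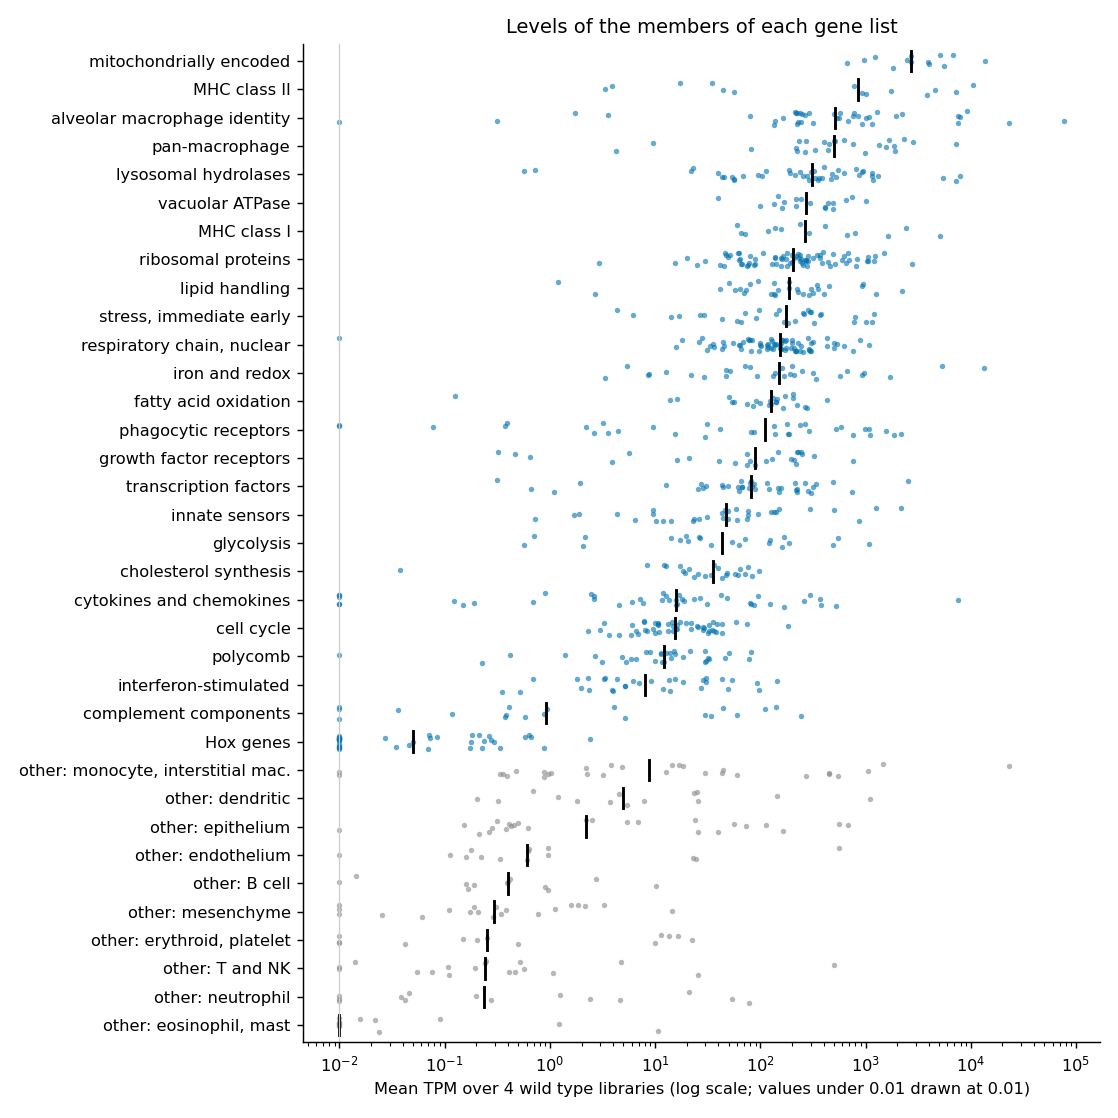
Mean TPM of each member (points, log scale) of 25 lists of macrophage and general functions (blue) and 10 lists of other cell types (grey), with black bars at the median over all members of a list. The mitochondrially encoded genes (median 2726 TPM) and class II genes (855.5 TPM) lie highest, and the eosinophil and mast cell list has a median of 0.

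Markers of other cells were detected to different degrees by list. At least 1 CPM on average was reached by 43.2% of all genes of the table. The share was 85.7% for dendritic cell, 73.3% for monocyte and interstitial macrophage, and 52% for epithelial genes. It was 42.9% for neutrophil, 38.5% for erythroid and platelet, 35.7% for endothelial and 30% for mesenchymal genes. For T and NK cell, B cell, and eosinophil and mast cell genes it was 16.7%, 16.7% and 15.4%. Some listed genes are ones that alveolar macrophages also express. The defining markers named in this paragraph were chosen after their values were seen. Of 14 neutrophil genes, 6 averaged at least 1 CPM. S100a8 was at 20.1, 17.3, 13.6 and 8.37 CPM while its partner S100a9 was at 4.30 CPM in replicate 2 and had no count in the others, and Ly6g had no count. The collagenase gene Mmp8 was steady at 59.6, 62.3, 76.8 and 57.3 CPM. Of 13 eosinophil and mast cell genes, 2 averaged at least 1 CPM, and Prg2 and Epx, which encode granule proteins of eosinophils, had no count in any library. Siglecf, shared by eosinophils and alveolar macrophages, was therefore high where those granule genes were at 0. Of 18 T and NK cell genes 3 reached 1 CPM, and Cd3e had counts in replicate 3 only, at 0.306 CPM. Of 12 B cell genes 2 reached 1 CPM. Immunoglobulin genes were nearly confined to replicate 2, where Igha was at 62.4 CPM, against 0.0861, 0.764 and 0.642 CPM in replicates 1, 3 and 4. Igkc was at 26.5 CPM in replicate 2 and had no count elsewhere.

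Of 25 epithelial genes 13 averaged at least 1 CPM, among them Krt19, Epcam and the tubulin-binding gene Tppp3, which was at 226.0, 268.0, 288.3 and 324.8 CPM. Sftpc, which defines type II alveolar cells, was at 10.6 CPM in replicate 2 and at 0, 0 and 0.0414 CPM in the others. Scgb1a1, the club cell secretoglobin, was at 46.6 CPM in replicate 2 and at 1.05, 0.951 and 2.34 CPM in the others. The endothelial genes Cdh5 and Pecam1 were at 4.27 and 3.60 CPM in replicate 2 while neither exceeded 0.443 CPM in another library, and the fibroblast gene Col1a1 was at 2.60 CPM in replicate 2 and had no count in the others. The summed B cell, erythroid and platelet, and mesenchymal lists were each highest in replicate 2. The endothelial sum was too (566.4, 779.8, 552.6 and 550.3 TPM), but most of it was Car4, at 516.0, 716.3, 500.0 and 507.4 TPM. The monocyte and interstitial macrophage list also holds Chil3. Among its other genes, Spp1, Selenop and Fn1 were abundant in each library, with Fn1 at 1923, 2930, 2034 and 1840 CPM. The classical monocyte marker Ly6c2 was at 1.08 CPM in replicate 2, at 0.272 CPM in replicate 3 and had no count in replicates 1 and 4. Cx3cr1 was at 4.84, 15.1, 4.18 and 3.11 CPM. Of the 14 members of this list at 10 CPM or more, 10 were highest in replicate 2, against 29.9% of all genes with at least 10 CPM. A gene could reach 10 CPM on average through replicate 2 alone.

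Promoter sequences of the most abundant genes differed in composition from those of moderately expressed genes. RefSeq promoters of GRCm38.p6 (250 bases before to 50 after the start) matched 18458 of the genes in the table, and 64 of the 102 genes at 1000 TPM or more, with 78 promoters. A TATA box, here the letters TATAAA beginning 40 to 20 bases before the start on the sense strand, was in 7.69% of those 78 promoters, which is 6 promoters. It was in 0.820% of 6707 promoters of genes between 10 and 100 TPM and in 1.99% of all 32851 RefSeq promoters. All promoters together cover 27025 genes, so they include genes beyond the 18458 that matched. The ETS core CCGGAAG, on either strand, showed the opposite order, with 5.13% of the first set, 21.0% of the second and 8.86% of all. The median count of CpG dinucleotides was 11 in the first set and 22 in the second. Promoters of genes under 0.1 TPM had a median of 4 CpG and a TATA box in 4.21%. A match to these letters is a description and not a binding site, and the first set is small.

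**Figure D3:**
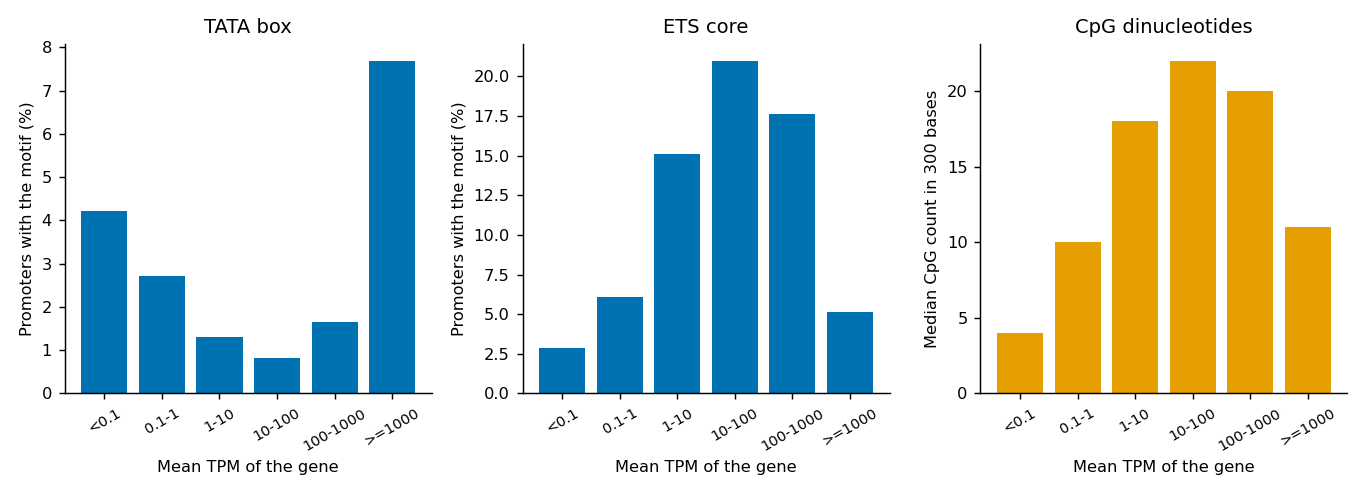
Share of promoters (%) with a TATA box in its window (left) or an ETS core (middle), and the median number of CpG dinucleotides in 300 bases (right), by mean TPM class of the gene. The class at 1000 TPM or more (78 promoters) has the highest TATA share, 7.69%, and an ETS share of 5.13%; the class from 10 to 100 TPM has 0.820% and 21.0%.

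The sequences below show both types. They are the 150 bases before the RefSeq start, read 5′ to 3′ on the strand of the gene, with the matching letters in capitals. Those with a TATA box belong to Vim (chr2:13574161-13574310, plus strand), the intermediate filament gene at 2684 ± 293.4 TPM, to H2-D1 (chr17:35262944-35263093, plus strand), a class I gene at 2398 ± 243.5 TPM, and to Chil4 (chr3:106219480-106219629, minus strand), the Ym2 gene at 1956 ± 150.1 TPM. They were the 3 highest by TPM among the genes open to this choice that had the match. Genes without a RefSeq promoter and some others were not open to it.
Vim: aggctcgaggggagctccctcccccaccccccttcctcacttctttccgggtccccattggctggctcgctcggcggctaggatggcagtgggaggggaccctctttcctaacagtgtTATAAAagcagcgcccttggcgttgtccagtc
H2-D1: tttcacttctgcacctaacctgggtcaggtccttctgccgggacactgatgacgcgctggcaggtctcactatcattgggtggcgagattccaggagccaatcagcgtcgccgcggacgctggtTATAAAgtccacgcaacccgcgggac
Chil4: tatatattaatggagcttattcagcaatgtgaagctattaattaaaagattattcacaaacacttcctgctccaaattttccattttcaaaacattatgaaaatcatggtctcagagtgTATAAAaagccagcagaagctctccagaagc
The boxes began 32, 26 and 31 bases before the start. The promoters of Vim and H2-D1 held 11 and 19 CpG dinucleotides and that of Chil4 held 2. The same rule was used for the ETS core in these 150 bases. Among the genes open to this choice, the 2 highest with it were Fcer1g (chr1:171234350-171234499, minus strand) and Pld3 (chr7:27553219-27553368, minus strand). Pld3 is a lysosomal phospholipase D family gene, at 1138 ± 19.9 TPM.
Fcer1g: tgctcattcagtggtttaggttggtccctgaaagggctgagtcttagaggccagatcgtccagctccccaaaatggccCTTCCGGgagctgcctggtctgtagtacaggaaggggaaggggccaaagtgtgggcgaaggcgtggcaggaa
Pld3: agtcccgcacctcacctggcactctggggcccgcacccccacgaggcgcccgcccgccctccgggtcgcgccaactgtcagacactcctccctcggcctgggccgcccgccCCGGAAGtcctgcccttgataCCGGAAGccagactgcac
The core of Fcer1g reads in the opposite orientation, and that of Pld3 occurs 2 times.

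Variation between libraries was small for most genes. Over the 8749 genes with at least 10 CPM the median SD of log2 CPM was 0.165, and it was 0.132 without replicate 2. It was 0.180 for genes between 10 and 100 CPM, 0.124 between 100 and 1000 CPM and 0.143 for the 89 genes above that. Of the 8749 genes, 97 had an SD over 1, and 17 had one without replicate 2, when genes were chosen by their mean over the 3 remaining libraries. Replicate 2 alone was separated from the rest in 81 of the 97, and was the highest library in 88. Among genes at 100 CPM or more, the steadiest were the membrane-bending protein gene Fnbp1, at 180.3, 182.2, 181.8 and 182.2 CPM, and the histone chaperone gene Nap1l4, at 118.3, 118.9, 119.8 and 119.2 CPM. Anxa7, an annexin gene, was at 152.1, 149.4, 151.6 and 151.2 CPM. Actb, often used as a reference gene, varied more, at 5487, 4822, 5787 and 6062 CPM (SD of log2 CPM 0.143).

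**Figure D4:**
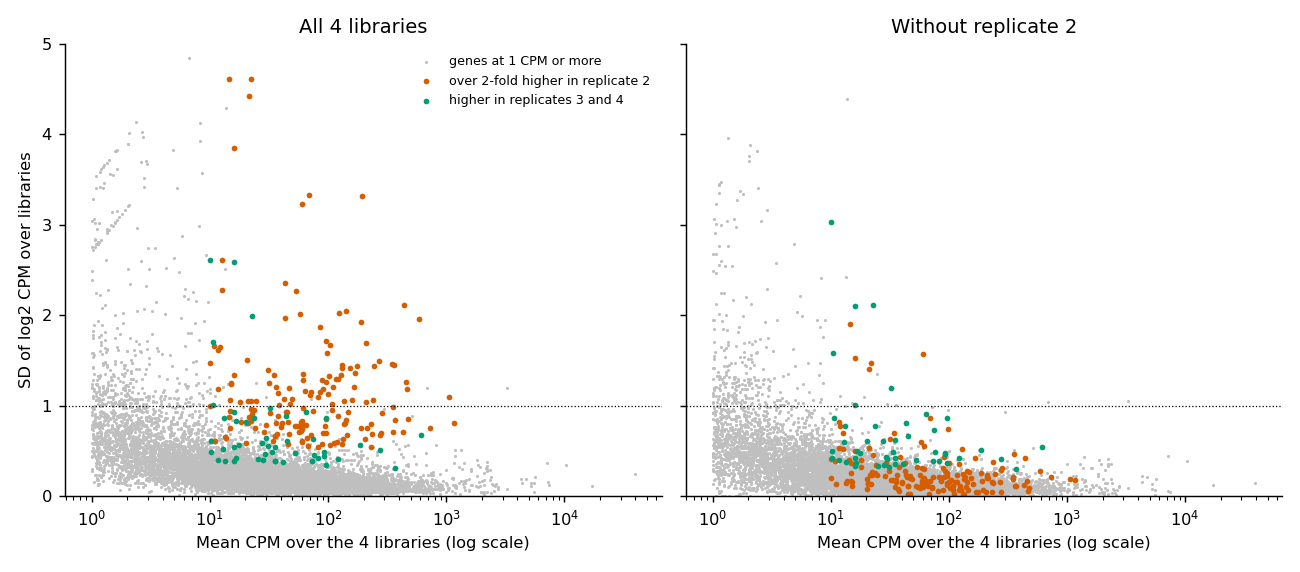
SD of log2 CPM (y axis) against mean CPM (x axis, log scale) for genes with at least 1 CPM, over all 4 libraries (left) and without replicate 2 (right), with a dotted line at 1. The 166 genes over 2-fold higher in replicate 2 than in each other library (orange) spread above the cloud on the left and lie mostly within it on the right; the 48 genes higher in replicates 3 and 4 (green) keep their place.

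The variation that did occur was shared by groups of genes, which were defined after their values were seen. In the first group, 166 genes were more than 2-fold higher in replicate 2 than in each other library. They averaged at least 10 CPM over all 4 libraries, and some, such as Cxcl1, reached that only through replicate 2. The genes given as examples of each group were also chosen after their values were seen. Cxcl2, a neutrophil chemokine gene, was at 7.60, 755.9, 7.95 and 7.21 CPM, and at 7.64 CPM on average without replicate 2. Cxcl1, a related chemokine gene, was at 87.8 CPM in replicate 2 and at 0.0246, 0.306 and 0.290 CPM in the others. Nr4a1, an orphan nuclear receptor gene induced within minutes of many stimuli, was at 112.1, 1501, 62.4 and 83.3 CPM. Fosb was at 147.1, 1957, 104.6 and 146.6 CPM, Il1b at 41.8, 630.4, 40.6 and 50.6 CPM, and Cd14, the co-receptor for lipopolysaccharide, at 150, 1026, 131.2 and 131.5 CPM. Nfkbia and Tnfaip3, feedback inhibitors of NF-kappaB, were at 51.5, 347.3, 56.1 and 55.6 CPM and at 54.1, 650.4, 67.3 and 69.6 CPM. In each case replicate 2 stood above the other 3 libraries, which differed less among themselves.

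Of the 28 stress and immediate early genes at 10 CPM or more, 22 were highest in replicate 2, against 29.9% of all genes at that level. For cytokines and chemokines the count was 17 of 22. Genes entered these counts by their mean over all 4 libraries, so some reached 10 CPM only through replicate 2. Cxcl1 and Cxcl2 averaged 0.208 and 7.64 CPM without it. The counts are therefore not independent of how the genes were chosen. Without replicate 2 the means were 133.7 CPM for Fosb, 44.7 CPM for Il1b, 138.5 CPM for Cd14 and 86.5 CPM for Nr4a1. Vegfa, the angiogenic factor, was at 57.5 CPM in replicate 2 and at 0.172, 0.374 and 0 CPM in the others, and Ptgs2, the inducible cyclooxygenase, at 84.1 CPM against 0.406, 0.323 and 0.0414 CPM. In the other 3 libraries Vegfa and Ptgs2 were thus under 0.5 CPM. Haemoglobin, immunoglobulin and some epithelial genes were also higher in replicate 2. Not all markers of other cells were. The summed neutrophil list was at 185, 186.6, 161.8 and 117.8 TPM in replicates 1 to 4. The 3 C1q genes, which encode the first complement component and mark interstitial macrophages, summed to 26.2, 161.7, 44.6 and 45.1 CPM. The part of other cells in this pattern was not tested.

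In the second group, 48 genes were higher in both replicates 3 and 4 than in both replicates 1 and 2, by over 0.5 on the log2 scale. The antigen presentation genes Tap1 and Ciita, the complement genes C3 and Cfb, the heat shock gene Hsph1 and the growth regulator Myc were among them. Cxcl9, a chemokine gene induced by interferon gamma, was at 3.26, 4.50, 36.4 and 47.0 CPM. Iigp1, an immunity-related GTPase gene, was at 0.468, 1.77, 17.8 and 20.4 CPM, and the protease inhibitor gene Serpina3g at 2.40, 0.867, 28.1 and 32.9 CPM. The guanylate-binding protein genes Gbp2 and Gbp3 were at 32.9, 31.0, 102.4 and 91.9 CPM and at 13.6, 11.2, 35.5 and 33.7 CPM. C4b, a complement gene, was at 2.76, 2.09, 20.5 and 16.8 CPM. Of the 15 interferon-stimulated genes at 10 CPM or more, 11 had this order, against 19.7% of all genes at that level. A gene could reach 10 CPM on average through replicates 3 and 4 alone, as Iigp1 of the group of 48 did.

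In the opposite direction, replicate 2 was separated by over 2-fold below the other 3 libraries at 26 genes. Txnip, an inhibitor of thioredoxin and of glucose uptake, was at 940.5, 431.2, 961.9 and 925.9 CPM, and Neat1, a nuclear long noncoding RNA, at 900.3, 200.2, 470.7 and 474.2 CPM. Replicate 1 was separated by over 2-fold below the rest at 9 genes. The genes that follow were lowest in replicate 1, and not all are among those 9. Ccr7, the receptor that guides dendritic cells to lymph nodes, was at 5.54, 37.0, 27.7 and 28.4 CPM. Fscn1, an actin-bundling gene of mature dendritic cells, was at 10.9, 27.1, 40.4 and 50.8 CPM, and Ccl22 at 21.3, 125.0, 67.9 and 71.8 CPM. Il12b was at 3.21, 20.5, 10.4 and 10.1 CPM, Itgae at 3.62, 16.4, 14.2 and 13.3 CPM, and Flt3, the receptor of dendritic cell progenitors, at 1.97, 8.96, 5.66 and 9.59 CPM. Replicate 1 was the lowest library for each of these, as it was for Cd74, H2-Aa and H2-Ab1. Of the 14 dendritic cell genes listed, 12 averaged at least 1 CPM, and their sums were 1281, 1308, 1365 and 1386 TPM in replicates 1 to 4, of which Sirpa, shared with macrophages, made the most. The part of dendritic cells in these values was not tested. The adjoining basement membrane genes Col4a1 and Col4a2 followed yet another split. Col4a1 was at 23.03, 30.5, 1.21 and 0.0207 CPM and Col4a2 at 22.97, 28.2, 1.14 and 1.33 CPM, so that replicates 1 and 2 were the high pair.

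**Figure D5:**
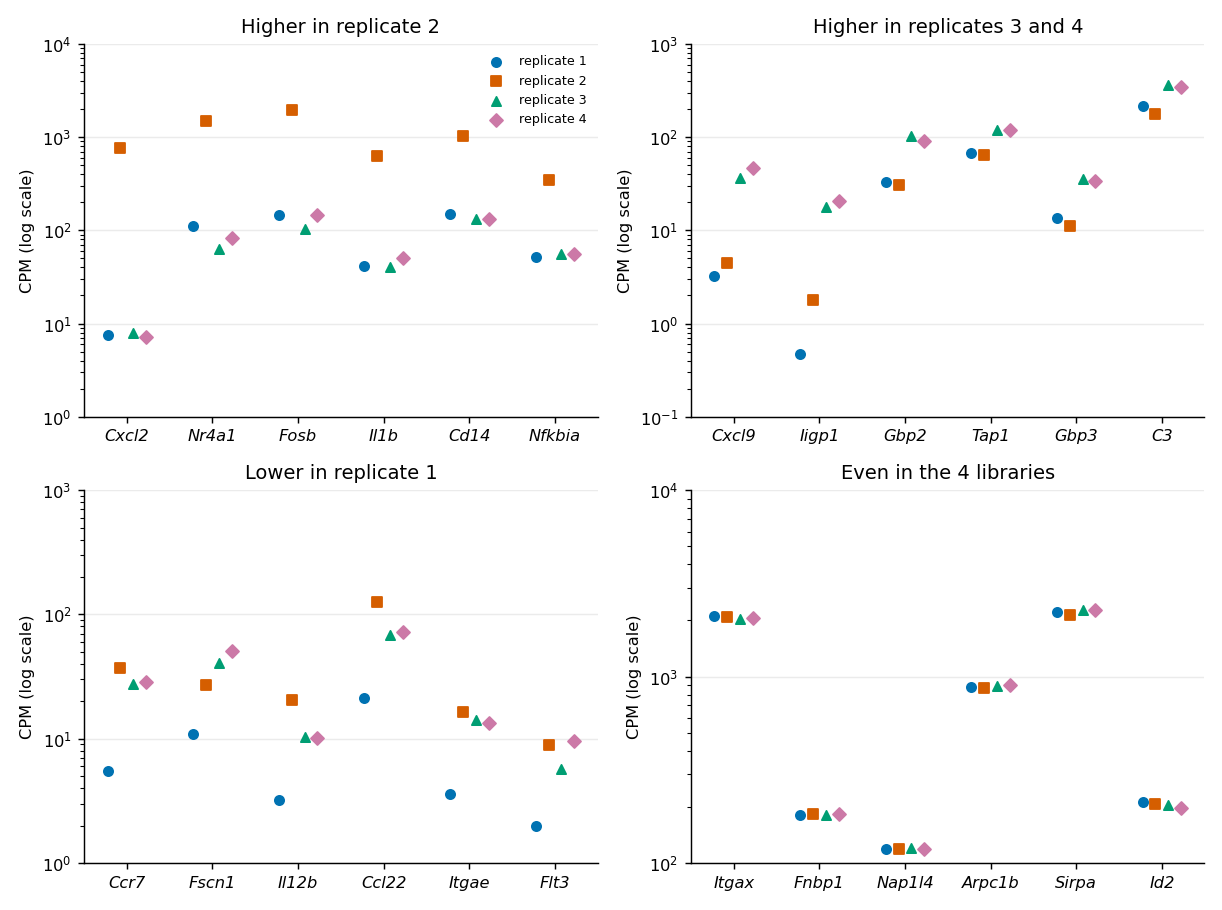
CPM (log scale) in each library of 6 genes from each of 4 sets, 1 point per library. Replicate 2 alone is high in the first panel (Cxcl2 at 755.9 CPM), replicates 3 and 4 in the second (Cxcl9 at 36.4 and 47.0 CPM), replicate 1 alone is low in the next (Ccr7 at 5.54 CPM), and the last panel holds even genes (Fnbp1, from 180.3 to 182.2 CPM).

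Promoters of the first 2 groups were searched for the same motifs. Of the 166 genes high in replicate 2, 127 had a promoter, and of the 48 high in replicates 3 and 4, 32 did. A gene with several starts was counted once for each, so the shares below are of promoters and not of genes. A kappaB site, the letters GGANNTTCC on either strand, was in 10.1% of the 178 promoters of genes high in replicate 2 and in 4.86% of the 8909 promoters of genes at 10 CPM or more. An interferon response element, the letters GAAANNGAA on either strand, was in 23.7% of the 38 promoters of genes high in replicates 3 and 4, or 9 promoters, and in 7.25% of the larger set. It was also in 20.5% of the 78 promoters of genes at 1000 TPM or more. The kappaB and interferon motifs were not the only ones that differed. In the replicate 2 set an AP-1 site (TGANTCA) was in 10.1% against 5.03%, and a TATA box in its window in 4.49% against 0.932%. In the set of replicates 3 and 4 the AP-1 site was in 13.2%. A gamma-activated site (TTCNNNGAA) was in 15.8% there, against 6.76%. Other motifs were lower, such as the ETS core, at 6.18% and 5.26% against 19.8%. The genes shown here were picked for a large spread in their group and a match within the bases printed. Not every gene of a group was open to this choice. Genes with a larger spread that are not shown, such as Iigp1, may also have a match. Cxcl1 (chr5:90891095-90891244, plus strand), Cxcl2 (chr5:90903749-90903898, plus strand) and Ccrl2 (chr9:111057519-111057668, minus strand), an atypical chemoattractant receptor gene at 35.2, 483.7, 27.3 and 24.3 CPM, carry the kappaB letters in capitals.
Cxcl1: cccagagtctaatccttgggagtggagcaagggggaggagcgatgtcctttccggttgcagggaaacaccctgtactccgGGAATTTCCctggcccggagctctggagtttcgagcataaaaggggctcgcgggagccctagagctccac
Cxcl2: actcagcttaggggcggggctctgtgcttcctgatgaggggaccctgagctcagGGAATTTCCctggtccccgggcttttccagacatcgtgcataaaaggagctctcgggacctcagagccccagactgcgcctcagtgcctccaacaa
Ccrl2: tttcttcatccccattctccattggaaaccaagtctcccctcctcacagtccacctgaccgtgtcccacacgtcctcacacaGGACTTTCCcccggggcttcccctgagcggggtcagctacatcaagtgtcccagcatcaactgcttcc
Their sites began 70, 96 and 68 bases before the start. Gbp2 (chr3:142620513-142620662, plus strand) and Gbp3 (chr3:142559894-142560043, plus strand) carry the interferon element in capitals, in the opposite orientation.
Gbp2: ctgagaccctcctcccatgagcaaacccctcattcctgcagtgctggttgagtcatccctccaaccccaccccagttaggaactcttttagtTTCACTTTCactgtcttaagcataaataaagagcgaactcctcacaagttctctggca
Gbp3: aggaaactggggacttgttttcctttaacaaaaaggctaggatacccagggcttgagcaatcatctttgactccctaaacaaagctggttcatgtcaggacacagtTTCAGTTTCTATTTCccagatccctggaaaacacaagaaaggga
Gbp2 has 1 match, 58 bases before the start, and Gbp3 has 2 that overlap, 38 and 44 bases before it.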

How the data were processed

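RNA was measured in alveolar macrophages sorted by flow cytometry from lung, as polyadenylated RNA with TruSeq libraries sequenced from 1 end over 85 bases, per the labels' protocols and the design text. The authors deposited whole-number counts, obtained with featureCounts and the mm10 build, per the submitters' processing notes. For the aligner, annotation, strand setting and multiply matching reads: not given in the sources used here. Groups followed the sample titles, and 4 of 7 libraries were used.

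Symbols, positions and promoters came from RefSeq of GRCm38.p6 by Entrez number. Of 27179 genes, 25275 matched, and the rest held 0.933 ± 0.329% of the counts. CPM used TMM factors between 0.980 and 1.03 (edgeR 4.0.16, R 4.3.3), log2 CPM used a prior count of 2, and TPM used the deposited gene length with no correction for read length. Spread is the SD of log2 CPM over the 4 libraries. No test was run, since there is 1 group. The calculation of spread was checked on simulated counts: 169 of 200 genes given extra spread had an SD over 1, and 0 of 8469 others. The extra spread was set well over that cutoff. The others had less biological variation than edgeR estimated for the data (median coefficient of variation 0.183). The simulation checks the calculation only and does not bear on the genes found variable here.

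The members, 35 gene lists and the motifs were chosen with earlier results of these data known. Genes were named by a rule: the 5 markers, the first 20 by CPM and by TPM, the largest rank shifts, the most and least variable, and for each list the highest, lowest and most variable. Other named genes were chosen after their values were seen: Chil4, Suz12, Ezh2, Fosb, Cxcl9, Ciita, Gbp3, Il12b, Ccl22, Itgae, Flt3, Vim, Pld3, Ccrl2, Nfkbia, Tnfaip3, Gapdh, Marco, Csf1r, Axl, Mertk, Gata6, Hmox1, Ctsk, Bhlhe41, Txnip, Neat1, Hsph1, Myc, the Y-linked genes and Xist, and Sftpc, Ly6c2, Cx3cr1, Ly6g, Cd3e, Prg2, Epx, Cdh5, Pecam1, Col1a1 and Igkc among markers of other cells. Alternatives were another scaling, prior count or filter, and leaving out each library. Some genes are not reported here.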

Additional observations from a re-analysis of the deposited data

Results flagged for a closer look

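A value was picked out where the gap between 1 library and the nearest other was, as a share of the whole range of the 4 libraries, above Dixon's 95% critical value. Of the 261 values examined (216 genes, 35 summed lists and 10 measures of a library), 64 met this, and replicate 2 was the highest library in 53 of them. Chance picks about 1 in 20. Over all 8749 genes with at least 10 CPM, 677 (7.74%) met it, with replicate 2 the highest library in 313. Many of the genes examined were named because they vary, so their share has no meaning beyond this set. The cause was not tested.

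The separation is measured against the range and not the level, so small shifts between close values are picked out as well as large ones. Epcam, for example, was at 152.9, 189.0, 156.0 and 150.8 CPM in replicates 1 to 4, and Eed at 43.0, 55.9, 40.9 and 42.9 CPM. Genes with replicate 2 separated above the rest, at 200 CPM or more there, stood at these CPM in replicate 2: Junb 2544, Fos 2326, Fosb 1957, Nr4a1 1501, Cd14 1026, Dusp1 1001, Atf3 782.5, Cdkn1a 764.8, Cxcl2 755.9, Tnfaip3 650.4, Il1b 630.4, Ccrl2 483.7, Car4 446.5, Apoe 433.0, Ets2 422.9, Nfkbia 347.3, Gadd45b 281.0, Nr4a2 266.8, Nr4a3 226.2. Between 20 and 200 CPM in replicate 2 were Epcam 189.0, Hilpda 188.6, Nfkbiz 153.6, Ddx3y 144.0, Gla 110.5, Cxcl1 87.8, Ptgs2 84.1, C1qa 76.6, Igha 62.4, Vegfa 57.5, Eed 55.9, Scgb1a1 46.6, Areg 44.7, Itgam 44.5, Igkc 26.5, Ighm 25.1, Hba-a2 20.6. Under 20 CPM in replicate 2 were Hbb-b1 17.2, Cx3cr1 15.1, Hba-a1 11, Jchain 10.6, Sftpc 10.6, Hbb-bs 8.96, Il23a 6.36, Ltf 4.35, S100a9 4.3, Cdh5 4.27, Pecam1 3.6, Col1a1 2.6. Replicate 2 was separated below the rest for Abcg1 2310, Ifngr2 50.1, Hoxb3 0.801 CPM, where Abcg1 was at 2707, 2697 and 2737 CPM, Ifngr2 at 84.3, 84.9 and 79.9 CPM and Hoxb3 at 1.23, 1.24 and 1.28 CPM in replicates 1, 3 and 4.

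Other libraries stood apart for few genes. Xist had 1 count in replicate 1 (0.0123 CPM) and 0 in the others, which is under the limit of 3 counts and shows no difference. Replicate 1 was low for Ldha 474.1, H2-Eb1 942.7 CPM. Replicate 3 was high for Cd3e 0.306 CPM. Replicate 4 was high for Spi1 534.3, Rplp1 651.1 CPM.

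Among summed lists, replicate 2 was the highest for the stress and immediate early genes (16931 TPM), endothelial genes (779.8 TPM, of which Car4 was 716.3), erythroid and platelet genes (235.4 TPM), B cell genes (58.1 TPM) and mesenchymal genes (50.8 TPM). Replicate 1 was the highest for cell cycle genes (1276 TPM), and replicate 4 the lowest for T and NK cell genes (493.0 TPM, of which Cd2 was 458.9).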

How the results depend on the processing

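No paired analysis was possible because the 4 libraries form 1 group and replicate numbers pair no samples within it. The number of genes at 1 CPM on average was 11646 to 11804 with 1 library left out, 11745 with library totals only, 11743 with median-of-ratios size factors and 11008 when each library had to reach it. With a count in any library it was 16712. Genes holding 50% of the counts numbered 626 to 640 with 1 library left out and 673 ± 14.2 without mitochondrial genes. Genes holding 50% of the TPM numbered 303 to 327 with 1 library left out, 303 with the read length taken off the gene length, and 373 ± 27.9 without mitochondrial genes. The number of genes with an SD over 1 was 17 without replicate 2 and 116 to 130 without another library, and 483 among genes with at least 1 CPM. The median SD stayed between 0.132 and 0.168, except at 0.202 over genes with at least 1 CPM. Of the 216 genes examined one by one, those with a mean under 1 CPM were left out of the next counts. Of the rest, 43 had a mean that moved by over 1.5 times without replicate 2. Without replicate 4, 3 moved by as much, which were Cxcl9, Iigp1 and Serpina3g. Settings for the 2 groups of genes that vary together were added after the data had been seen. The group high in replicate 2 numbered 157 to 168 genes and the group high in replicates 3 and 4 numbered 44 to 49. With 4 libraries the SD of a single gene is imprecise.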

Other observations

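The genes with no symbol in RefSeq included 2 abundant ones with a large spread, chosen after their values were seen. Entrez 100861531 was at 3728, 1073, 1573 and 6711 CPM and Entrez 19791 at 786.4, 223.7, 340.5 and 1428 CPM. Both had the order replicate 4, replicate 1, replicate 3 and replicate 2, and both kept an SD of log2 CPM over 1 without replicate 2 (1.05 and 1.04). They make up most of the difference between libraries in the share of counts without a symbol, which was 1.01%, 0.653%, 0.702% and 1.36%.

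Genes of the Y chromosome were counted in all 4 libraries. Ddx3y, an RNA helicase, was at 106.5, 144.0, 106.1 and 100.2 CPM, Eif2s3y, a translation factor, at 74.1 ± 12.8 CPM, and the chromatin genes Kdm5d and Uty at 39.0 ± 6.58 and 29.6 ± 4.82 CPM. Xist, the RNA of the inactive X chromosome, had 1 count in replicate 1 and 0 in the others.

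Long noncoding RNA genes held 0.319 ± 0.0396% of the counts, and 219 of 2077 averaged at least 1 CPM. Of 20983 protein-coding genes, 10941 did so. Among promoters of genes at 1000 TPM or more, 0 of 78 held the NRF1 core (CGCATGCG) or the YY1 site (AAGATGGCG), on either strand, which 4.56% and 4.01% of promoters of genes between 10 and 100 TPM held. The PU.1 core (GAGGAAGT) was in 7.69% of the former, 3.12% of the latter and 3.20% of all 32851 RefSeq promoters, which include those of genes not counted here. Over all promoters the other shares were 1.87% for NRF1 and 1.40% for YY1.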
